A study of Mus musculus with 6 samples.

Results

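The Nodal pathway was followed in mouse embryonic stem cells through 9 genes, taken by their symbols from the 18193 genes that had a probe set of exactly 1 gene symbol. They are the ligands Nodal and Gdf3, the antagonists Lefty1 and Lefty2, the co-receptor Tdgf1, the type II receptor Acvr2b, the transcription factor Foxh1 and the feedback regulators Smad7 and Skil. The 9 genes carried 17 probe sets, of which 16 were above the filter on dim signals (a mean above 20.1), and all 9 genes were among the 14185 tested. Lefty1 was picked because it differed between Geminin knockdown and control cultures, and its pathway was chosen with the values of that comparison known. The knockdown values are therefore given as a description.

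Nodal is a secreted ligand of the TGF-beta family that signals through activin receptors, with an EGF-CFC protein such as Tdgf1 as co-receptor. The receptors phosphorylate SMAD proteins, which enter the nucleus with SMAD4 and bind DNA together with partners such as FOXH1. The Lefty proteins block Nodal outside the cell and are themselves induced by Nodal, which closes a negative feedback loop. In embryonic stem cells the pathway is known for holding back neural fate and for its part in the primed epiblast state.

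GemKD cultures received doxycycline (Dox, 500 ng as labelled), which switches on a microRNA-like short hairpin (shRNAmir) that targets Gmnn, the gene of Geminin, a protein that restrains replication licensing. Uninduced cultures of the same lines carried the hairpin without Dox, so effects of Dox and of the knockdown cannot be told apart. All lines derived from ES-E14TG2a, of 129P2 background, and all cultures spent 2 days in N2B27, a serum-free medium for neural differentiation. The hairpin was shRNAmir 11 in experiments 1 and 3, and shRNAmir 9, in another line, in experiment 2. Each of the 3 independent experiments gave 1 GemKD and 1 uninduced array, a number that sets the limit to how precise any value here can be. No label used here says whether a line is a single clone.

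The 6 arrays had median signals between 59.3 and 60.9. Gmnn had signals of 983.4, 1669 and 1269.6 in GemKD in experiments 1, 2 and 3, against 3557, 3477 and 3463 in uninduced cultures, with no overlap (exact two-sided permutation p = 0.1, the smallest that 3 arrays against 3 allow). Experiment 3 stood apart from the others in both arms. The summed signal of 7 neural markers was 1787 in GemKD and 1568 in uninduced cultures there, against 4148 to 4948 on the 4 arrays of experiments 1 and 2. That of 9 naive stem cell markers was 4425 in GemKD and 3927 in uninduced cultures of experiment 3, against 9025 to 11296 in the others. Primed epiblast markers went the other way, at 20693 in GemKD and 20339 in uninduced cultures of experiment 3, against 13525 to 15675. The sum of 7 fibroblast markers was 788 in GemKD and 722 in uninduced cultures there, against 1341 to 1529, with 4 called lower and 1 higher than in experiment 1. The sum of 6 trophoblast markers, 479 and 399 against 1027 to 1251, followed Tfap2c (317.6 and 202.4, against 866.1 to 1129.6). Ascl2 was called higher than in experiment 1 (log2 difference 0.69, limma adjusted p = 0.015), but not than in experiment 2 (0.39, limma adjusted p = 0.148). Sums of streak and mesoderm markers (726 and 717, against 756 to 891) and of endoderm markers (692 and 741, against 626 to 828) were closer. The labels call the tissue neurectoderm, and the neural markers Sox1 and Pax6 averaged 550 and 146 in experiment 3, against 2439 and 822 in experiment 1. Of the 7 neural markers 4 were called lower than in experiment 1. Nes (274 against 258) and Pou3f2 (26 against 21) were not lower, and Hes5 (16.4 against 28.9) was not called. In such bulk samples fewer cells of a type and less RNA per cell cannot be told apart.

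Lefty1, measured by 1 probe set, was higher in GemKD in all 3 experiments. Its signal was 949.8, 791.7 and 733.9 in the GemKD arrays of experiments 1, 2 and 3, against 426.4, 425.2 and 565.4 in the uninduced arrays. The 2 groups did not overlap, and the GemKD arrays lay closest to their controls in experiment 3. The fold, taken from the signal plus 16, was 2.18, 1.83 and 1.29 in experiments 1, 2 and 3. The mean log2 ratio, taken here and below as log2 of the signal plus 16, was 0.79 ± 0.39 (SD, n = 3). Of the 9 genes 1, Lefty1, had all GemKD arrays above all uninduced arrays, against 2.09% of the genes tested, and none had them all below, against 2.24%. The same held over probe sets, where the shares were 2.83% above and 2.27% below. Lefty1 was chosen with these values known, so nothing is read from that count. Naive stem cell markers went the same way: 7 of 9 were higher in GemKD in all 3 experiments, against 12.2% of all genes, and 1, Prdm14, was lower in all 3. Their summed signal was 10823, 11296 and 4425 in GemKD in experiments 1, 2 and 3, against 9025, 9744 and 3927 in uninduced cultures. Nanog had log2 ratios of 0.50, 0.62 and 0.23. None of the 9 naive markers was called by limma with or without the block (3 had an unadjusted p under 0.05 with it). The sum of 7 neural markers was also higher in GemKD, at 4948, 4767 and 1787, against 4864, 4148 and 1568 in uninduced cultures. Of those 7, 2 were higher in all 3 experiments. The part of either marker set in the Lefty1 values was not tested.

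Lefty2, the paralog of Lefty1, went one way in experiments 1 and 3 and the other way in experiment 2. It was dim, at 120.5, 77.78 and 125.1 in GemKD in experiments 1, 2 and 3, against 77.19, 118.9 and 61.68 in uninduced cultures. The groups overlapped, with GemKD higher in experiments 1 and 3 and lower in experiment 2. The log2 ratios were 0.55, -0.52 and 0.86.

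The ligands themselves stayed near their controls. Nodal had signals of 1212, 1140.3 and 1164 in GemKD in experiments 1, 2 and 3, against 1055, 1275 and 1114 in uninduced cultures by its brighter probe set. The groups overlapped, GemKD being lower in experiment 2 alone, and the mean log2 ratio was 0.03 ± 0.18 (SD, n = 3). The dimmer probe set of Nodal had the same pattern of signs, with log2 ratios of 0.36, -0.14 and 0.08. Gdf3, a relative of Nodal expressed in pluripotent cells, had 2894, 2684 and 2406 in GemKD, against 2789, 2649 and 2358 in uninduced cultures. Its values moved with the experiment and hardly with the arm, at a mean log2 ratio of 0.03 ± 0.02 (SD, n = 3), and its other probe set had -0.02 ± 0.04 (SD, n = 3).

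**Figure D1:**
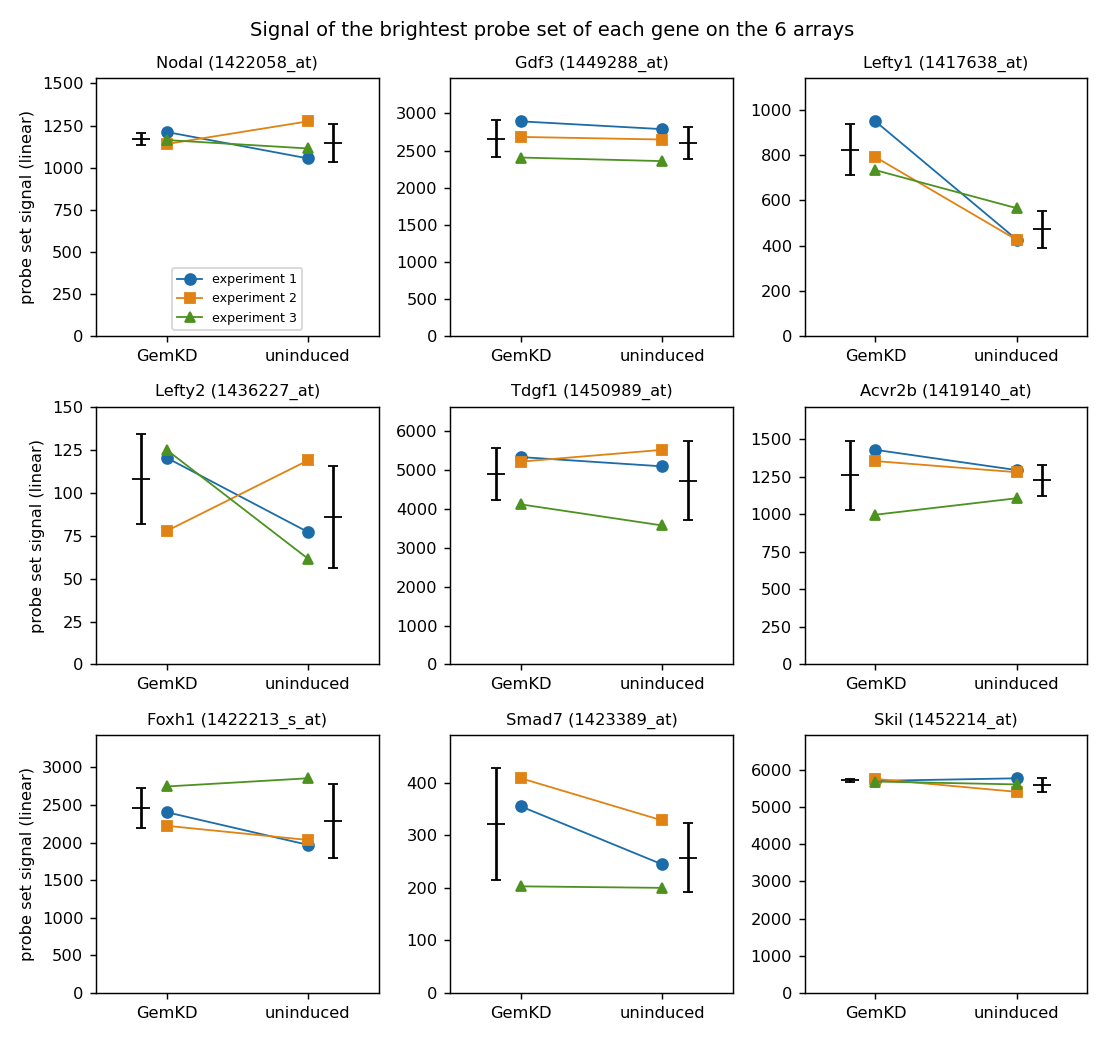
Linear signal of the brightest probe set of each of the 9 genes, with GemKD on the left and uninduced on the right of each panel. Lines join the arrays of an experiment and black bars give mean and SD (n = 3). The 2 groups are apart for Lefty1, at 733.9 and above in GemKD against 565.4 and below in uninduced cultures, and overlap for the other genes.

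At the receptor level, Tdgf1, the Nodal co-receptor also known as Cripto, had 5339, 5223 and 4121 in GemKD in experiments 1, 2 and 3, against 5100.4, 5526 and 3578 in uninduced cultures. Acvr2b, a type II activin receptor, had 1428, 1353 and 996.2 in GemKD, against 1293, 1279 and 1106 in uninduced cultures. Both genes were lower in both arms of experiment 3 than on any other array, and their arms overlapped. Mean log2 ratios were 0.06 ± 0.14 for Tdgf1 and 0.02 ± 0.15 for Acvr2b (SD, n = 3). The second probe set of Acvr2b had 0.08 ± 0.16 (SD, n = 3), and the third was below the filter, with signals between 7.33 and 20.45.

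Among the nuclear factors, Smad7, an inhibitory SMAD and a target of the pathway, was higher in GemKD in all 3 experiments by both of its probe sets, though by little in some. By the brighter one it had 355.3, 409 and 203.1 in GemKD in experiments 1, 2 and 3, against 244.8, 328.6 and 200.2 in uninduced cultures. The arms overlapped because experiment 3 was low in both, and the log2 ratios were 0.51, 0.30 and 0.02. The other probe set, whose suffix x marks probes that can bind unrelated transcripts, had 0.27, 0.01 and 0.15. Foxh1, the forkhead partner of the SMADs, had 2405, 2224 and 2747 in GemKD, against 1970.3, 2035 and 2856 in uninduced cultures. Its arms overlapped, with log2 ratios of 0.29, 0.13 and -0.06. Skil, which encodes the SMAD corepressor SnoN, was level, at 5706, 5759 and 5689 in GemKD, against 5776, 5411 and 5611 in uninduced cultures. Its dimmer probe set, with means of 217 ± 16.2 in GemKD and 232 ± 17.3 in uninduced cultures (SD, n = 3 each), had a mean log2 ratio of -0.09.

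**Figure D2:**
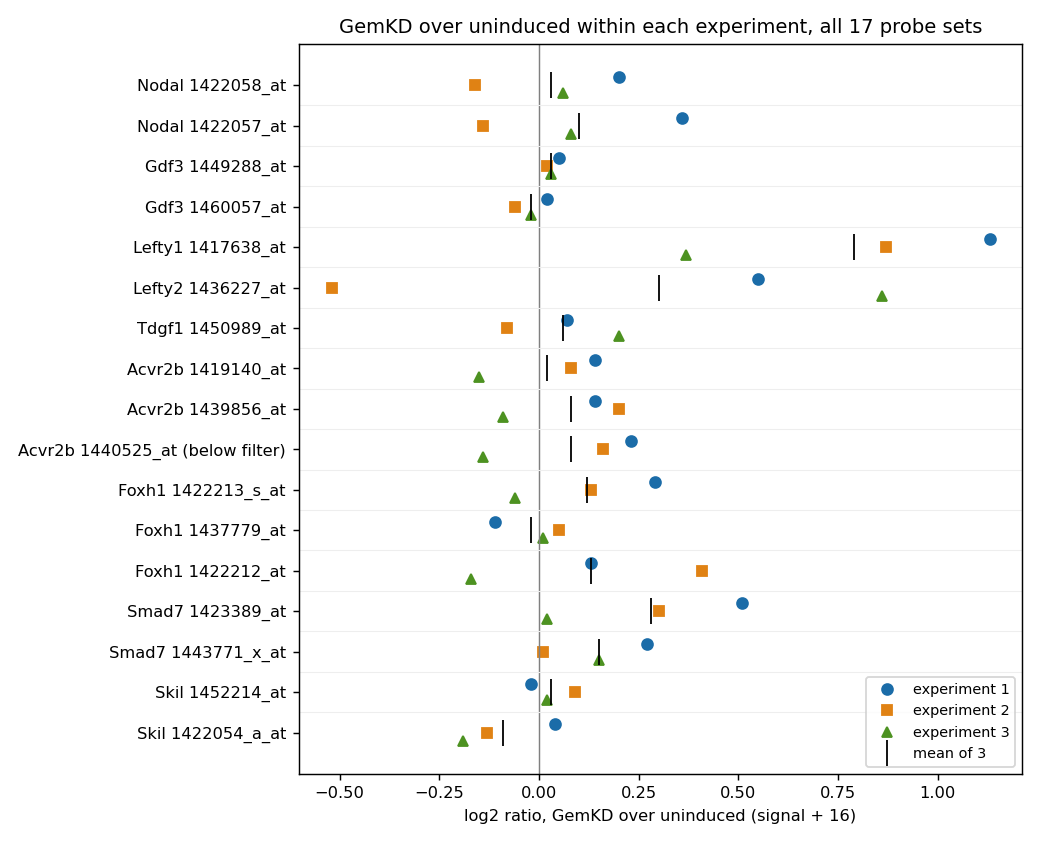
Log2 ratio of GemKD over uninduced (signal plus 16) within each experiment for all 17 probe sets, with a bar at the mean of the 3. Lefty1 lies furthest to the right at a mean of 0.79, Lefty2 has the widest spread, from -0.52 to 0.86, and most other probe sets scatter around 0.

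Across the whole table, limma without regard to experiment called 0.00705% of genes, and none of the 9 (1 had an unadjusted p under 0.05). With the experiment as a block 0.0352% of all genes were called, and 0.0141% of all genes were called higher in GemKD. Lefty1 was the 1 of the 9 called, and it was higher (2 had an unadjusted p under 0.05). That call, at a limma adjusted p of 0.0201, was lost with quantile normalization (0.129), no filter (0.864), no intensity trend (0.986) and the mean over probe sets (0.308). Since the genes were chosen on this contrast, nothing is read from those counts. Over 31526 probe sets limma called 0.00317% without and 0.00952% with the block, and no probe set of the 9 genes in either fit. The mean ratio was positive for 9 of 9 genes, against 7262 of the 14185 tested, and the median log2 fold change was 0.06, against 0.002 over all genes. Without the GemKD array of experiment 1, or without the uninduced array of experiment 3, 6 of 9 were positive, since Gdf3, Tdgf1 and Acvr2b turned negative, and with each gene averaged over its probe sets 8 were, since Skil did. GemKD was higher in all 3 experiments for 3 of the 9, Lefty1, Smad7 and Gdf3, against 12.2% of all genes, and lower in all 3 for none, against 11.7%. By probe set 4 of 16 were higher in all 3, against 13.5%, and none lower, against 10.5%. The mean ratios of Nodal, Lefty2, Tdgf1, Acvr2b, Foxh1 and Skil were smaller than their SD. These signs also come from the contrast on which the genes were chosen, so nothing is read from their counts.

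The experiments were compared next, over both arms of each. Lefty1 was picked on the knockdown contrast. The genes were chosen with earlier results of these data known, so their choice may not be independent of this contrast. Tdgf1, Acvr2b, Smad7 and Gdf3 were lower and Foxh1 was higher in experiment 3, while Nodal, both Lefty genes and Skil did not pass. Thus 5 of 9 genes were called by the limma F test over the 3 experiments, against 27.3% of all genes tested, and 6 of 16 probe sets, against 18.7%. In the pairwise comparisons 4 were lower and 1 higher in experiment 3, against 18.8% and 9.81% of all genes from experiment 1, and 18.3% and 9.8% from experiment 2. Experiment 3 shares its arrays in the comparisons with experiments 1 and 2. Each experiment was run once, so the p-values measure the spread between the arms of an experiment and not that between repeats of the differentiation.

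Tdgf1 had the smallest p of the 9. It averaged 3849.6 ± 383 in experiment 3, against 5219.5 ± 168 in experiment 1 and 5375 ± 214 in experiment 2 (SD, n = 2 arrays each). The log2 difference was -0.44 (95% interval -0.56 to -0.32) from experiment 1 and -0.48 (-0.61 to -0.36) from experiment 2, with limma adjusted p = 5.52e-05 and 2.69e-05. Acvr2b averaged 1051 ± 77.6 in experiment 3, against 1360.4 ± 96 in experiment 1 and 1316 ± 52.7 in experiment 2 (SD, n = 2 arrays each). Its differences were -0.37 (-0.54 to -0.19, limma adjusted p = 0.00406) and -0.32 (-0.50 to -0.14, 0.00976). The next probe set of Acvr2b had -0.21 and -0.35, and its F test over all probe sets did not pass (limma adjusted p = 0.0903). The F test of Acvr2b over genes, at a limma adjusted p of 0.00656, had 0.103 without the GemKD array of experiment 3. Tdgf1 stayed called without any single array.

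The promoters of these receptor genes are shown with that of Nodal, which did not pass between experiments. RefSeq sequences of GRCm38.p6, from 250 bases before to 50 after the annotated start, were used for 3 of the 9 genes. They are Nodal (chr10:61417722-61418021, plus strand), Tdgf1 (chr9:110946109-110946408, minus strand) and Acvr2b (chr9:119401928-119402227, plus strand), printed 5′ to 3′ with each SMAD box, CAGAC or its reverse complement GTCTG, in capitals.
Nodal: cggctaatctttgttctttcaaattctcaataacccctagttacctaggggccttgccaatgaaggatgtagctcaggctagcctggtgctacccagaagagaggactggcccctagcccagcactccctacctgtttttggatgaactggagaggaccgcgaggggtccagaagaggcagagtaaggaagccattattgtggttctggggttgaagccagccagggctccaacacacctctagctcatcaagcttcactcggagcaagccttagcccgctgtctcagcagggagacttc
Tdgf1: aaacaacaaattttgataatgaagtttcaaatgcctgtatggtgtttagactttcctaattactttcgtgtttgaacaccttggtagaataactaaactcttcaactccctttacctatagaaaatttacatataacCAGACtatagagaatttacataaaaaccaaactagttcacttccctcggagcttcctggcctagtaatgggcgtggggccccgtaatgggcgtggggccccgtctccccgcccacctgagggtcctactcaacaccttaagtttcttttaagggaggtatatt
Acvr2b: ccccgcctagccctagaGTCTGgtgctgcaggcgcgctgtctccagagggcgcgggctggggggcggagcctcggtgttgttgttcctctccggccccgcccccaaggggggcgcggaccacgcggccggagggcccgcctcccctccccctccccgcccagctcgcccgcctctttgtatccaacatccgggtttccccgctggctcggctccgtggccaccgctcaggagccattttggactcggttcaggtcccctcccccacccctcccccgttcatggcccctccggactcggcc

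Tdgf1 and Acvr2b each held 1 SMAD box and Nodal held 0, and 49.6% of 32851 promoters of this length hold at least 1. The palindromic element GTCTAGAC (0.213% of promoters) and the FOXH1 sequences AATCCACA (0.855%) and AATACACA (0.98%), searched on both strands, were in none of the 3 windows. The promoters of the other pathway genes were not searched. The 2 receptor promoters were unlike in base composition, with a GC content of 41.7% for Tdgf1 and 73.3% for Acvr2b, against 54% for Nodal and a median of 52.7% over all promoters.

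Smad7 had the largest difference between experiments among the 9 genes. Its promoter was left out of the search above, so whether it holds these elements was not tested. Smad7 averaged 202 ± 2.08 in experiment 3, against 300 ± 78.1 in experiment 1 and 369 ± 56.9 in experiment 2 (SD, n = 2 arrays each). The log2 difference was -0.52 (-0.79 to -0.24, limma adjusted p = 0.00782) from experiment 1 and -0.81 (-1.09 to -0.54, 3.05e-04) from experiment 2. Its other probe set had -0.50 and -0.89 and was called as well. The difference of experiment 3 from 1 rested on single arrays, with a limma adjusted p of 0.207 without the GemKD array of experiment 1 and 0.0741 without that of experiment 3.

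Foxh1 was the 1 gene of the 9 that was higher in experiment 3, at 2802 ± 77.3, against 2188 ± 307 in experiment 1 and 2129.5 ± 134 in experiment 2 (SD, n = 2 arrays each). The log2 differences were 0.36 (0.20 to 0.52, limma adjusted p = 0.00191) and 0.39 (0.24 to 0.55, 0.00106). Its probe sets disagreed. The brightest, which gave these values, has the suffix s of probes shared by several transcripts, the next had 0.22 and 0.23, and the third -0.05 and -0.03, and neither of those passed. The difference from experiment 1 had a limma adjusted p of 0.0694 without the uninduced array of experiment 1.

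Gdf3 averaged 2382 ± 33.3 in experiment 3, against 2841 ± 74.8 in experiment 1 and 2667 ± 25 in experiment 2 (SD, n = 2 arrays each). The log2 differences were small, -0.25 (-0.37 to -0.13, limma adjusted p = 0.0035) and -0.16 (-0.28 to -0.04, 0.043), and the second probe set had -0.16 and -0.10 and did not pass. The F test of Gdf3 had a limma adjusted p of 0.00926, and 0.0547 without the GemKD array of experiment 1. The difference from experiment 2 lost its call with quantile normalization (limma adjusted p = 0.0682), no filter (0.0594), no intensity trend (0.213), averaged probe sets (0.112) and without any single array (0.072 to 0.268). On chromosome 6 Gdf3 is followed by Dppa3 and Nanog in RefSeq order. The naive pluripotency factor Nanog differed far more, at 315 in experiment 3, against 2073 in experiment 1, a log2 difference of -2.64.

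Lefty1 averaged 649.7 in experiment 3, 608 in experiment 2 and 688 in experiment 1. The log2 difference of experiment 3 was 0.01 (-0.28 to 0.30) from experiment 1 and 0.15 (-0.14 to 0.44) from experiment 2. These intervals rest on a variance moderated over genes. The log2 ratios of Lefty1 itself had an SD of 0.39, so no decrease is excluded by the intervals. From experiment 1 to 3 Lefty1 fell in GemKD (949.8 to 733.9) and rose in uninduced cultures (426.4 to 565.4). Its F test had a limma adjusted p of 0.669, and 0.0199 without the GemKD array of experiment 3. Nodal had 0.01 (-0.18 to 0.20) and -0.08 (-0.27 to 0.11), and Skil -0.02 (-0.12 to 0.07) and 0.02 (-0.08 to 0.11). The intervals of Lefty2 were the widest, -0.63 to 0.42 in both comparisons. Between experiments 2 and 1, which used different lines and hairpins, none of the 9 was called by limma (1 had an unadjusted p under 0.05), against 0.0705% of all genes higher and 0.0352% lower.

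**Figure D3:**
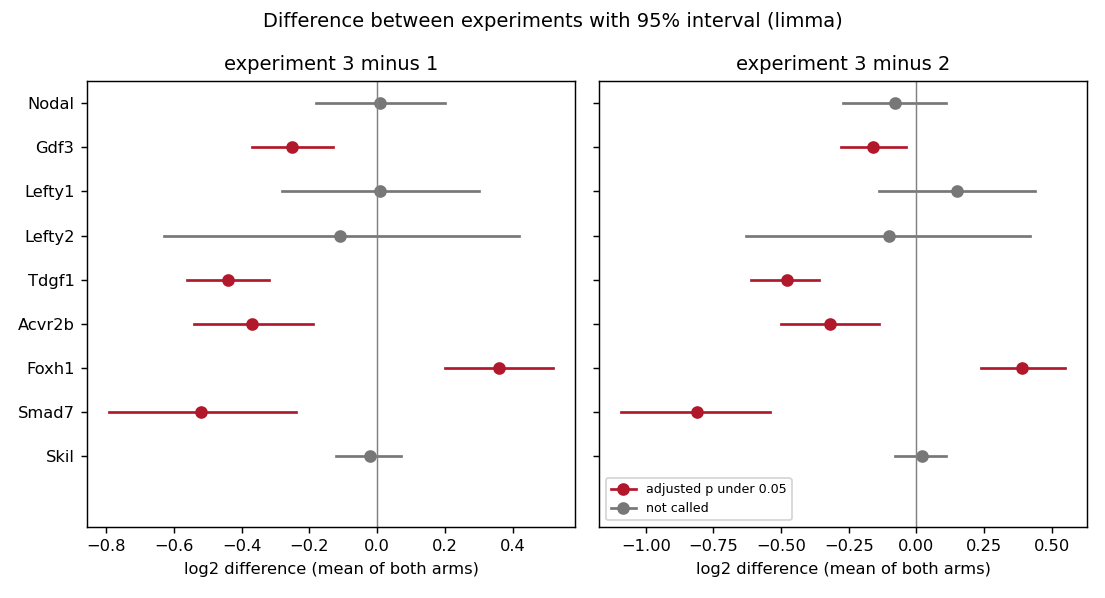
Log2 difference between experiments, averaged over GemKD and uninduced arrays, with 95% intervals from limma, for experiment 3 minus 1 and experiment 3 minus 2. Gdf3, Tdgf1, Acvr2b and Smad7 lie left of 0 and Foxh1 right of it in both panels, and the intervals of Nodal, Lefty1, Lefty2 and Skil cross 0.

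The calls between experiments depended on how a gene was summarised. With each gene averaged over its probe sets 2 of the 9, Tdgf1 and Smad7, were called. That was a similar share to the 2870 of 14185 genes called in all. With a variance prior that ignores intensity none of the 9 was called (1273 genes were called in all). The summed levels of neural, naive and primed epiblast markers given above moved with these differences, and their part in them was not tested.

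Gmnn was lower in GemKD with both hairpins, with log2 ratios of -1.05 in experiment 2 (shRNAmir 9), against -1.84 and -1.44 in experiments 1 and 3 (shRNAmir 11). The only shRNAmir 9 experiment used a line of its own, so hairpin, line and experiment cannot be told apart. For Lefty2 the log2 ratio of experiment 2 minus the mean of the others was -1.23, for Lefty1 it was 0.13 and for Nodal -0.29. A limma fit of this difference, with 1 residual degree of freedom per gene, called 0.324% of all genes, with 1 of the 9, Lefty2, among them, and 0.336% of probe sets, with none of theirs. It draws on the ratios known when the genes were chosen, so nothing is read from that count.

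The other genes of the pathway came from lists of 43 genes, of which 41 had a probe set of 1 gene symbol and 34 passed the filter. Between GemKD and uninduced cultures limma called none of the 34 with or without the block, and none had an unadjusted p under 0.05. Their median log2 fold change was -0.01, 5 were higher and 6 lower in all 3 experiments. The F test between experiments called 15 of 34, against 27.3% of all genes. In experiment 3 relative to 1, 11 of the 34 were called lower and 5 higher, against 18.8% and 9.81% of all genes.

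Of 6 other receptor genes tested 3 were called lower and 1 higher in experiment 3 than in experiment 1. The type I receptor gene Acvr1b, whose product pairs with ACVR2B, averaged 389.7 in experiment 3, against 618 in experiment 1, a log2 difference of -0.64 (limma adjusted p = 2.16e-04). Acvr2a, another activin type II receptor gene, had a log2 difference of -0.36 and Tgfbr1, the type I receptor of TGF-beta, -0.25, both called. Tgfbr3, the TGF-beta co-receptor betaglycan, was higher, with 0.47 (limma adjusted p = 0.0475), and its F test did not pass (0.113). Tgfbr2, the type II receptor of TGF-beta, had 0.19 and did not pass. The F test called 3 of the 6, and for this and the following lists the share of all genes called was 27.3%.

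Of 11 SMADs and nuclear partners 7 were called. Smad4, the common SMAD, had a log2 difference of -0.19 and Tgif1, a corepressor, -0.30 between experiments 3 and 1, while the related Tgif2 had 0.00. Yap1, a coactivator, had -0.15 and was called by the F test. Among 9 antagonists and feedback genes 3 were called. Fst, which encodes the activin-binding protein follistatin, averaged 856 in experiment 3, against 641 in experiment 1 (log2 difference 0.41, limma adjusted p = 0.00385). Ppm1a, a SMAD phosphatase, had 0.20 and was called, Smurf2, a ubiquitin ligase that acts on SMADs and receptors, had -0.36 and was called, and Smurf1 had 0.10 and was not.

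Other ligands and their convertases were dim to moderate, and 1 of 5 was called. Inhbb, an activin subunit gene, averaged 23.7 in experiment 3, against 62.9 in experiment 1 and 101 in experiment 2, with log2 differences of -0.98 and -1.55. The proprotein convertases Furin and Pcsk6, which can cleave the Nodal precursor, had -0.21 each and Pcsk5 -0.26, none called. Furin and Pcsk6 were higher in GemKD in all 3 experiments, at mean log2 ratios of 0.20 ± 0.15 and 0.18 ± 0.09 (SD, n = 3), and neither passed.

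Targets of the streak and axis were mostly near the lower end of the scale. Of 8 measured, 5 were below the filter, Gsc, Mixl1, Lhx1, Wnt3 and Fgf8, with means of 10.6, 13.5, 20.4, 13.3 and 17.6 in GemKD, against 11.6, 12.3, 17, 9.01 and 15.2 in uninduced cultures. Foxa2, an endoderm and axis factor, averaged 36.7 in GemKD and 29.5 in uninduced cultures. Eomes, a T-box factor of the streak, averaged 252 in experiment 3, against 334 in experiment 1 (log2 difference -0.39), and its F test did not pass (limma adjusted p = 0.0597). Otx2, a homeobox factor of the epiblast and forebrain, had 2759 in experiment 3, against 1237 in experiment 1, a log2 difference of 1.15, and a log2 fold change of 0.00 between GemKD and uninduced cultures. Otx2 is also 1 of the 4 primed epiblast markers, all of which were higher in experiment 3.

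**Figure D4:**
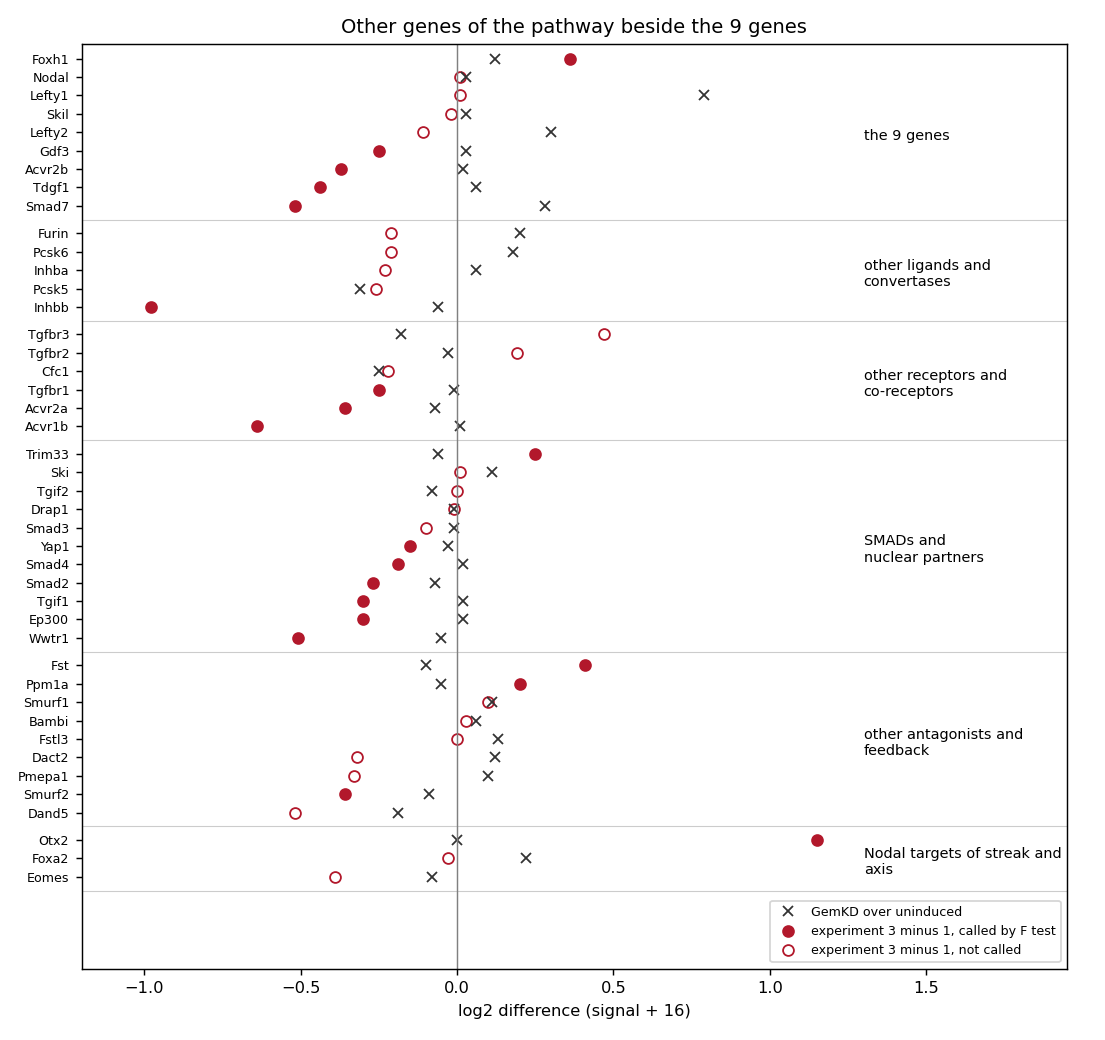
Log2 difference of experiment 3 minus 1 (circles, filled where the F test over experiments passed) and mean log2 ratio of GemKD over uninduced (crosses) for the 9 genes and 34 other tested genes of the pathway, by list. The crosses lie between -0.31 for Pcsk5 and 0.79 for Lefty1, while the circles run from -0.98 for Inhbb to 1.15 for Otx2.

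Genes with the profile most like that of Lefty1 over the 6 arrays were sought by the Euclidean distance between mean-centred log2 values. The 5 nearest were Hmx1, 1700003E16Rik, Jup, Il6ra and Paqr7, at distances of 0.499 to 0.552 (median over all genes 1.13). The nearest genes lie below the median by selection. A gene with no change would lie at 1.05, the length of the Lefty1 profile. Of the 5 genes Jup, which encodes plakoglobin, was well above the filter. It had 549.6, 573.4 and 442 in GemKD in experiments 1, 2 and 3, against 336.5, 391.8 and 397.1 in uninduced cultures. Hmx1, the nearest, was dim, at 29.82, 26.83 and 27.93 in GemKD, against 9.64, 7.86 and 27.74 in uninduced cultures. None of the other 8 pathway genes was among the nearest. For Nodal the 5 nearest were Pus7, Tspan33, Nkiras2, Adad2 and Carmil1, at distances of 0.0664 to 0.0861 (median over all genes 0.417, length of the Nodal profile 0.21). Nodal varied little over the arrays, and these genes were as flat, with GemKD below its control in experiment 2 in each.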

How the data were processed

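Per the labels' protocols, total RNA was labelled with biotin and hybridised to Affymetrix mouse genome arrays. The values the authors deposited are linear intensities, 1 for each of 45037 probe sets on an array, and how these were summarised and normalized is not given in the sources used here. Between 1.58% and 1.69% of values per array were exactly 1. The platform annotation gave 34945 probe sets 1 gene symbol, 932 several and 9160 none.

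A gene was represented by its brightest probe set, and tested if its mean signal was above the 30th percentile. Values were log2 of signal plus 16. Linear models of limma (3.58.1, under R 4.3.3), moderated with a trend in mean signal, two-sided, at a Benjamini-Hochberg adjusted p under 0.05, were fitted over all genes and again over all probe sets. GemKD and uninduced arrays were compared without a block, and with the experiment as a block. Experiments were compared by an F test with the arm as covariate, and hairpins by an interaction. The series' design text calls the experiments independent and the titles give each its own control, so the number pairs the arrays. Their deviations from the group means correlated with 0.489, 0.472 and 0.714 within experiments 1, 2 and 3. Across experiments 1 and 2 the correlations were 0.416 and 0.314, and across experiment 3 and the others -0.602 to -0.487. These values thus set apart experiment 3 alone.

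The members and lists were chosen with earlier results of these data known. Of each list the 4 brightest tested genes were named whatever their change, with the 5 genes nearest in profile to Lefty1 and to Nodal. Genes below the filter, marker genes, neighbours on a chromosome and members that lost or gained a call were added after their values were seen. The fits were tested on simulated data. Alternatives were the block, quantile normalization, other filters and pseudocounts, no trend, the mean of all probe sets, and leaving out each array or experiment.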

Additional observations from a re-analysis of the deposited data

Results flagged for a closer look

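The response to induction in experiment 2, the only one with shRNAmir 9, stood apart from that in experiments 1 and 3 for 2 of the genes described. For Lefty2 the log2 ratio of GemKD over uninduced was lower there, by -1.23. Its opposite sign in experiment 2 was known when the genes were chosen, so this is a description. The limma fit of experiment 2 against the others had 1 residual degree of freedom per gene, so only sizes are given. For Gmnn the difference was 0.59, from 1 experiment against 2, that is, a smaller decrease with shRNAmir 9. That experiment used a line of its own, so hairpin, line and experiment cannot be told apart.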

How the results depend on the processing

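The log2 fold change of Lefty1 stayed positive under all 17 alternatives, between 0.62 and 0.999. With the experiment as a replicate block 5 genes were called between GemKD and uninduced cultures in place of 1, and 3 probe sets in place of 1, and of the 9 pathway genes 1 was called with and 0 without the replicate block. The mean log2 ratio was positive for 6 to 9 of the 9 genes over the alternatives. Under the block, whose combinations with other settings were chosen after seeing the data, 0 of the 9 were called with quantile normalization, no filter, no intensity trend or the mean over probe sets. Over 16 alternatives the limma adjusted p of Lefty1 ran from 4.06e-08 to 0.986. The lowest values came from leaving out an array or an experiment. That leaves 1 residual degree of freedom per gene, so nothing is read from them. Without experiment 1, 2 or 3 the block called 75, 28 and 28 genes. Leaving out arrays or an experiment without a block gave 0 to 3 genes and 0 to 1 probe sets, and no intensity trend gave 0 of each.

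Between experiments no intensity trend gave 1273 genes in place of 3867, 1252 probe sets in place of 5911 and 0 of the 9 genes in place of 5. The mean over probe sets gave 2 of the 9, with 2870 genes called in all, and no filter 3787 probe sets. Leaving out arrays gave 31 to 4099 genes, 23 to 7095 probe sets and 0 to 6 of the 9 genes, the lowest of each without experiment 3. For the hairpins 46 genes became 3 with no filter, 0 with no intensity trend and 5 with the mean over probe sets. The difference of Lefty2 ran from -1.43 to -0.855 over 7 alternatives. Its call was lost with quantile normalization, no filter, no intensity trend and the mean over probe sets. No array could be left out of that fit, since no residual degree of freedom would remain. The cause of these changes was not tested. Dim probe sets limit what can be seen, 1 of 17 being below the filter.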
